A study of Mus musculus with 33 samples.

Results

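Inflammatory monocytes (IM) from tumours treated with stereotactic body radiotherapy plus interleukin 12 were compared with IM from unirradiated tumours. The comparison rests on 6 of the 33 RNA sequencing libraries of the study, 3 from each group, and on all 53735 genes of the table that the authors deposited for it. The mice were C57BL/6 and carried KCKO pancreatic ductal adenocarcinoma cells, 100000 of them implanted orthotopically in the pancreatic tail. IM were sorted from the digested tumours as CD45+CD11b+Ly6C+Ly6G- cells. Stereotactic body radiotherapy (SBRT) gives few high doses to a small volume, here 4 fractions of 6 Gy from day 6 to day 9. Interleukin 12 (IL-12) was released by microspheres that held 0.5 µg and were placed in the tumour on day 10. The group labelled IM_SBRT+IL12, called the combination here, received both, and the group labelled IM_unIrr received neither SBRT nor IL-12. The protocols also name empty microspheres (2 mg) without saying which groups received them. The day of harvest, the age of the mice and whether each library came from its own mouse are not given in the sources used here. 3 other comparisons stand beside the results: IM after SBRT alone and IM after IL-12 alone, each with 3 libraries and the same unirradiated controls, and tumour-associated macrophages (TAM) after the combination, with 2 libraries against 2 of their own controls.

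IL-12 is a cytokine of antigen-presenting cells that makes T and natural killer cells secrete interferon gamma. Monocytes sense interferon gamma through a surface receptor, and its signal reaches promoters at GAS elements and at interferon-stimulated response elements (ISRE), which IRF1 also binds. Among the best-known targets are GTPases that attack vacuoles of intracellular microbes, the machinery of antigen presentation and inducible nitric oxide synthase. Inflammatory monocytes leave the blood through the chemokine receptor CCR2 and can become macrophages in tumours.

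For each gene the authors' deposited table gives a mean level (the mean of normalised counts over the libraries), a log2 fold change of the combination over unirradiated, a Wald statistic and an adjusted p. A bracket such as (1.49 ± 0.15) holds the deposited log2 fold change and an approximate standard error, here taken as the fold change over the statistic. The fold changes are shrunken towards 0, most for genes of low level. The statistic need not come from the shrunken value, since the ratio was negative for Prm3 (-0.0976, mean level 0.43). The ratio is thus only an approximation, and the difference tests below rest on it. This standard error shrinks with the fold change, so at low level it understates the error. Its median was 0.14 at mean levels of 3 to 10 and 0.22 at 30 to 100. A gene is said to have risen or fallen only where its deposited adjusted p was below 0.05. The tables hold no value for a single library, so the depth of each library, its replicate values and the number of libraries that show a direction are unknown. In place of sample values, an implied level is given for the 4 IM groups. It is computed from the deposited mean level and the 3 deposited fold changes under the assumption that the 4 groups weigh equally, it inherits the shrinkage, and it carries no error of its own. In sorted bulk RNA a change in the make-up of the sorted cells and a change in the RNA of each cell cannot be told apart.

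Of 18660 genes tested, 688 (3.69%) rose and 566 (3.03%) fell. By size, 98 rose and 73 fell by at least 1 on the log2 scale, and the median over all tested genes was -0.02. When the statistics were centred and divided by their robust spread over the tested genes (an empirical null, which asks how far a gene stands from the bulk of all genes), 311 (1.67%) passed as higher and 181 (0.97%) as lower. Genes named below that lost their call in this way are given with the empirical-null adjusted p, or with its range for several genes, where each is first described. All 12 monocyte markers were detected, and their summed implied level was 1269700 in unirradiated and 1168590 in combination IM. Ly6c2, part of the sort marker, rose (1.10 ± 0.15), as did Plac8 (0.44 ± 0.13, empirical-null adjusted p = 0.167), while Ccr2 fell (-0.58 ± 0.11). None of 12 T cell markers was called, and their summed implied level was 2503 in unirradiated and 2234 in combination IM. Of 11 natural killer cell markers only Klrk1 was called. For neutrophil markers the summed implied levels were 26672 and 24141, and of the 11 genes Mmp8 fell, as did Lcn2 (empirical-null adjusted p = 0.167). Pnlip of 10 acinar markers tested fell (-0.48 ± 0.14), Cdh1 of 9 epithelial markers fell (-0.66 ± 0.20) and Pecam1 of 5 endothelial markers rose (0.72 ± 0.20). None of these 3 passed under the empirical null (adjusted p = 0.165, 0.208 and 0.1), and none of the B cell, fibroblast, erythroid or mast cell markers tested was called.

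The promoters of 4 GTPase genes are shown first, because these genes rose together and their promoters hold known interferon motifs. They had the largest increases among the GTPase genes matched to a RefSeq promoter entry. Genes without a match are not shown, and several of them rose more than Tgtp1. They are the 250 bases before the RefSeq start (GRCm38.p6), written 5′ to 3′ on the strand of the gene, with motif matches in capitals. The motifs searched were the ISRE core on both strands, which is GAAA, any 2 bases and GAAA again, and the GAS motif TTCNNNGAA, which reads the same on both strands.
Gbp2b, chr3:142594597-142594846, plus strand: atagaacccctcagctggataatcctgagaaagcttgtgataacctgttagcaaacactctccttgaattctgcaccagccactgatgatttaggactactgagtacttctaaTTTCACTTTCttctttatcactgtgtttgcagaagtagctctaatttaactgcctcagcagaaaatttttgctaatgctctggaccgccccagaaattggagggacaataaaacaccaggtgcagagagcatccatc
Tgtp1, chr11:48992247-48992496, minus strand: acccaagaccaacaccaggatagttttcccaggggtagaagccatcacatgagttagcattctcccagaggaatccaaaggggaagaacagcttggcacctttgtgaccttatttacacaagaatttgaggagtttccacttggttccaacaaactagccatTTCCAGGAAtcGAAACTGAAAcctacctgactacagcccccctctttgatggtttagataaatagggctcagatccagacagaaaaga
Tgtp2, chr11:49064213-49064462, minus strand: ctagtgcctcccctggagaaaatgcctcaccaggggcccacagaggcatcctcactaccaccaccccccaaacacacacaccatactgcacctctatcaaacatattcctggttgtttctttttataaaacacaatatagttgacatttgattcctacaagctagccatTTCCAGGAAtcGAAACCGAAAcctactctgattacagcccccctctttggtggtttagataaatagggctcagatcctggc
Igtp, chr11:58199306-58199555, plus strand: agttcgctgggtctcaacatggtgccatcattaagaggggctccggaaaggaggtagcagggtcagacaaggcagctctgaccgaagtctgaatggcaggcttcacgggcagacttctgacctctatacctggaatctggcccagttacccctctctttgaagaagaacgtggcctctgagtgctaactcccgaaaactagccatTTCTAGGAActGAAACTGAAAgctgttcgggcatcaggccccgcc
In Gbp2b the ISRE core lies on the other strand and its match begins at position -137 from the start. Tgtp1 and Tgtp2 are near-identical copies, and the Tgtp1 window lies inside the longer GENCODE vM21 model of that gene. In both the GAS motif comes first, at -88 in Tgtp1 and -81 in Tgtp2, and an ISRE core follows on the same strand at -77 and -70. In Igtp the same order is found closer to the start, with GAS at -45 and the ISRE core at -34.

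Over all 32851 RefSeq promoters of 300 bases (250 before and 50 after the start), 3.44% held an ISRE core and 8.30% a GAS motif. Among the guanylate-binding protein genes 5 of 11 had an entry. All 5 held an ISRE core and 2 held a GAS motif. Of the immunity-related GTPase genes 7 of 10 had an entry, of which 5 held an ISRE core and 4 a GAS motif. Of 17 genes of MHC class I loading 14 had an entry, 3 with an ISRE core and 1 with a GAS motif. A GAS motif followed by an ISRE core on the same strand, with 2 bases between them, was found in 5 of the 32851 promoters (0.0152%), those of Igtp, Irgm2, Tgtp1, Tgtp2 and Gm12185. That spacing was looked for after the printed sequences had been seen, and the 5 genes belong to related families, so their promoters are not independent. A match is a stretch of letters and shows no binding.

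Guanylate-binding proteins (GBP) coat and break microbial vacuoles and feed the inflammasome. All 11 of their genes rose after the combination in the authors' deposited table, with a median of 1.45. Gbp2b, on chromosome 3 from 142594847 to 142619179, led them (1.87 ± 0.22, adjusted p = 1.76e-15), and its implied level went from 5756 in unirradiated IM through 10440 after SBRT and 14490 after IL-12 to 20975 after the combination. The combination was thus the highest of the 4 groups for Gbp2b, at 3.64 times the unirradiated level. Behind it came Gbp11 (1.58 ± 0.17), Gbp10 (1.51 ± 0.17), Gbp4 (1.49 ± 0.15), Gbp8 (1.46 ± 0.14) and Gbp6 (1.45 ± 0.17). Rises of Gbp7, Gbp3 and Gbp2 lay between 0.69 and 0.78. Gbp5, which assembles with the inflammasome sensor NLRP3, and Gbp9 rose least (0.58 ± 0.19 and 0.40 ± 0.12), and neither passed under the empirical null (adjusted p = 0.244 and 0.140). Gbp4, Gbp8 and Gbp9 overlap on the same strand, and Gbp6 and Gbp10 are close copies, so reads could be split between them.

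Immunity-related GTPases, a second family that acts on vacuoles, rose in 7 of 9 tested members, with a median of 0.73. Iigp1 had the smallest adjusted p among all genes named here in the authors' deposited table (1.83 ± 0.12, adjusted p = 1.37e-51). Its implied level was 14199 in unirradiated IM, 23972 after SBRT, 38994 after IL-12 and 50377 after the combination. Tgtp1 (1.44 ± 0.11), Tgtp2 (1.35 ± 0.11) and Igtp (0.92 ± 0.11) followed. The regulatory members Irgm1 (0.73 ± 0.13) and Irgm2 (0.54 ± 0.11) rose too. Igtp and Irgm2 overlap on the same strand. Irgq (-0.23) and Irgc1 (0.04) did not pass. The plot of implied levels shows the 4 groups side by side for the GTPase genes of both families.

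**Figure D1:**
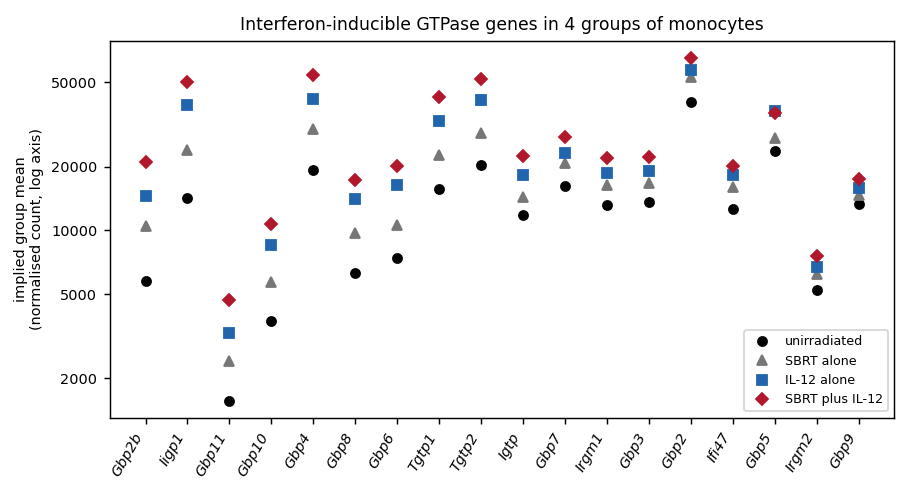
Implied group mean (normalised count, log axis) of the interferon-inducible GTPase genes at the higher mean levels in the 4 groups of IM, each group a symbol. Gbp2b goes from 5756 in unirradiated to 20975 in combination IM, while Gbp9 moves least.

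Genes that carry and restrain the interferon signal gave a mixed picture: of 24 tested, 5 rose and 1 fell. Socs1, a feedback inhibitor of the receptor kinases, rose most (1.10 ± 0.15, adjusted p = 5.91e-11). Irf7 (0.55 ± 0.12) and Batf2 rose too. Usp18, which removes the ubiquitin-like ISG15 and damps the type I receptor, rose (0.49 ± 0.13) but not under the empirical null (adjusted p = 0.0806). Ifngr1, the ligand-binding chain of the interferon gamma receptor, fell (-0.71 ± 0.13, adjusted p = 7.7e-06). The abundant Irf1 (0.25 ± 0.16, adjusted p = 0.45), Stat3 (-0.19 ± 0.13) and Socs3 (-0.11 ± 0.18) did not pass. Batf2 overlaps Arl2 on the other strand, and the library kit does not mark strand.

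Of 33 antiviral interferon-stimulated genes 15 rose and 0 fell, with a median of 0.36. The largest named rises were those of Ifit1bl1 (1.25 ± 0.20) and Ifit2 (1.14 ± 0.14), whose family binds foreign RNA, and Ifi44 (0.97 ± 0.19). Ifit3 (0.74 ± 0.15), Ifit3b (0.69 ± 0.14) and Xaf1 (0.58 ± 0.09) rose as well. Samhd1 (0.24), Ifi27l2a (0.26) and Ifitm3 (0.06) were not called. Of the Schlafen and PYHIN families 4 of 15 rose, among them Ifi205 (0.75 ± 0.13) and Mnda (0.48 ± 0.11), while Slfn1 (0.49 ± 0.12) and Mndal (0.36 ± 0.11) did not pass under the empirical null (adjusted p = 0.0611 and 0.225). Among 16 ADP-ribosylating enzymes and partners 5 rose, of which Parp3 alone passed under the empirical null (0.54 ± 0.10), and Parp1, the DNA damage sensor, fell (-0.51 ± 0.13, empirical-null adjusted p = 0.0951).

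Sensors upstream of interferon did not move as one group: of 18 intracellular nucleic acid sensors and adaptors, 2 rose and 2 fell. Zbp1, a sensor of Z-form nucleic acid (0.80 ± 0.10), and Dhx58, which encodes LGP2 (0.63 ± 0.10), rose. The endosomal RNA receptor gene Tlr7 fell (-0.75 ± 0.15), as did Mavs, the adaptor of cytosolic RNA sensing (-0.56 ± 0.16, empirical-null adjusted p = 0.172). Of 27 surface Toll-like receptor, NOD-like receptor and inflammasome genes, 2 rose and 2 fell (7.41% each). Over all tested genes the shares were 3.69% and 3.03%, so these few calls say little about the list. Casp1 (0.49 ± 0.12) and Nod1 (0.49 ± 0.15) rose and Tlr1 (-0.47 ± 0.11) and Tlr5 (-0.72 ± 0.20) fell. Nod1 and Tlr5 did not pass under the empirical null (adjusted p = 0.166 and 0.165).

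IL-12 acts through a receptor with a pair of chains and STAT4, and IM changed several genes of this family. Il12rb1, the chain shared by the IL-12 and IL-23 receptors, rose (2.03 ± 0.15, adjusted p = 1.06e-35). Its implied level was 916.2 in unirradiated IM, 1745 after SBRT, 2310 after IL-12 and 3751 after the combination. Stat4, on chromosome 1 from 51987148 to 52107189, fell (-1.50 ± 0.17, adjusted p = 2.73e-15), with implied levels of 442.4, 256.3, 216.0 and 156.1 in the same order. The receptor chain and the signal carrier of the same pathway thus moved in opposite directions. Il18bp, a secreted decoy that neutralises IL-18, rose (1.47 ± 0.14), and so did Il15ra (0.59 ± 0.14), which presents IL-15. Both chains of IL-27 rose, Il27 by 1.03 ± 0.15 and Ebi3 by 0.62 ± 0.16 (empirical-null adjusted p = 0.0801 for Ebi3). Il12b, which encodes the chain that IL-12 shares with IL-23, is named after its value was seen. It rose (0.60 ± 0.18), but not under the empirical null (adjusted p = 0.167). Il15 (0.01), Il18 (-0.02) and Il18rap (-0.17) did not pass. Il18bp, Il27 and Ebi3 each overlap a gene on the other strand, Numa1, Apobr and Gm16712.

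MHC class I presentation starts with peptides cut by the proteasome, which TAP carries to new class I molecules. Of 17 genes of this route 11 rose and 0 fell, with a median of 0.57. The transporter genes Tap1 (0.79 ± 0.08, adjusted p = 1.11e-21) and Tap2 (0.82 ± 0.09) and the immunoproteasome genes Psmb9 (0.75 ± 0.07), Psmb8 (0.77 ± 0.11) and Psmb10 (0.64 ± 0.08) rose together, as did the proteasome activator gene Psme2 (0.68 ± 0.09). Tap1 and Psmb9 overlap on opposite strands. Tapbp (0.41 ± 0.14, adjusted p = 0.0524), Calr (0.13) and Pdia3 (0.13) of the loading complex did not pass.

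Of 31 constitutive proteasome genes 9 rose and 0 fell, and 2 passed as higher under the empirical null. All 31 had a positive fold change, with a median of 0.26, where 8806 of the 18660 tested genes were positive. The leading members were core subunits, Psma5 (0.51 ± 0.10) and Psma4 (0.45 ± 0.09). Psmb2, Psmb7, Psma7 and Psma2 rose by 0.32 to 0.42 and did not pass under the empirical null (adjusted p from 0.134 to 0.205). Psma1 (0.26), Psmd2 (0.20) and Psmd8 (0.12) were not called.

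Non-classical class I molecules, which show conserved peptides or lipids to unconventional T cells and natural killer cells, gave 11 rises and 1 fall among 17 tested, with a median of 0.72. Cd1d1, which presents lipids to natural killer T cells, rose (1.17 ± 0.18, adjusted p = 1.48e-08). H2-Q6 (1.12 ± 0.18), H2-Q7 (0.98 ± 0.17), H2-T10 (0.97 ± 0.13), H2-T23, the gene of Qa-1 (0.72 ± 0.12), and H2-M3, which presents formylated peptides (0.63 ± 0.10), rose with it. The 1 gene that fell was H2-T9 (-1.01 ± 0.23), named after its value was seen. It was as low after SBRT (-1.05) and after IL-12 (-1.01). H2-T22 (0.40), H2-Q2 (0.34) and H2-Q1 (-0.25) did not pass. The H2-Q and H2-T genes, like Cd1d1 and Cd1d2, are near-identical copies among which reads could be misassigned.

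MHC class II genes present peptides to CD4 T cells, and 8 of 13 tested rose while 0 fell, with a median of 0.51. The chains H2-Ab1 (0.98 ± 0.15, adjusted p = 1.47e-08), H2-Eb1 (0.93 ± 0.17) and H2-Aa (0.81 ± 0.16) rose, as did the peptide exchange factors H2-DMb2 (0.83 ± 0.12) and H2-DMb1 (0.77 ± 0.11) and the invariant chain gene Cd74 (0.75 ± 0.17). H2-Ab1 had implied levels of 156095 in unirradiated, 211152 in SBRT, 261854 in IL-12 and 308873 in combination IM. The processing genes Ctss (0.24) and Ifi30 (-0.05) and the inhibitor gene H2-Ob (0.49) did not pass.

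Costimulatory and coinhibitory ligands gave 6 rises and 1 fall among 21 tested. Cd274, the gene of PD-L1, which inhibits T cells through PD-1, rose (1.31 ± 0.15, adjusted p = 2.76e-15). Its implied level was 15680 in unirradiated, 22879 in SBRT, 26695 in IL-12 and 38931 in combination IM. The second PD-1 ligand gene Pdcd1lg2 rose too (0.94 ± 0.22), but no higher than after SBRT alone. Its fold change was 0.95 after SBRT and 0.27 after IL-12. Slamf7 (1.25 ± 0.19), Slamf8 (0.81 ± 0.14) and Ido1, a tryptophan-degrading enzyme (0.88 ± 0.22), rose. Pvr, a ligand of TIGIT and CD226, fell (-0.65 ± 0.16, empirical-null adjusted p = 0.0568). Cd83, Tnfsf9 and Vsir lay between -0.36 and -0.06 and were not called. Klrk1, which encodes the activating receptor NKG2D, rose (1.62 ± 0.14, adjusted p = 1.78e-27), and 10 other natural killer cell markers, Ncr1 (-0.27) and Gzmb (-0.03) among them, were not called.

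**Figure D2:**
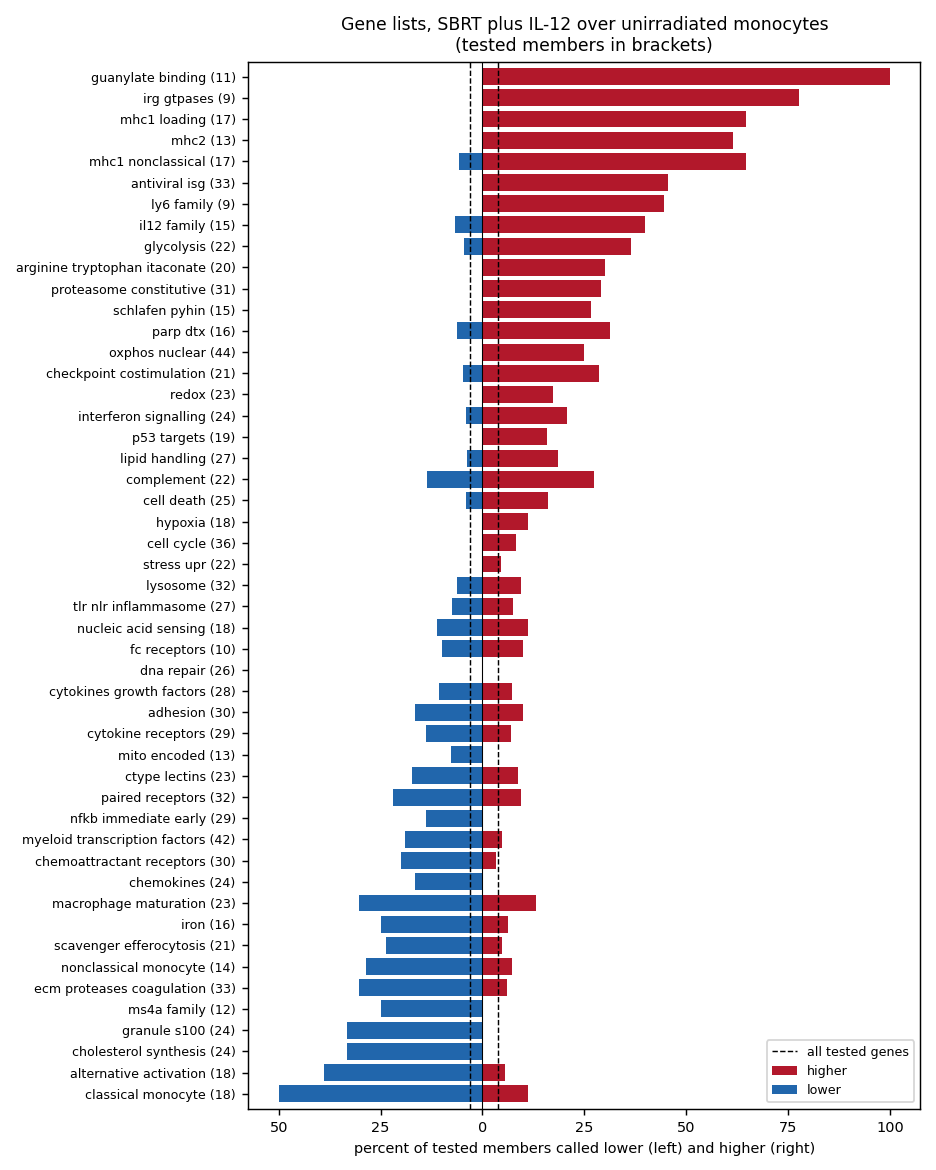
Percent of the tested members of 49 gene lists that were called higher (red, right) and lower (blue, left) after the combination, with the number tested in brackets and dashed lines at 3.69% and 3.03%, the shares over all tested genes. The GTPase and antigen presentation lists stand at the top and the classical monocyte, alternative activation and sterol synthesis lists at the bottom.

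Nos2, which makes nitric oxide from arginine, had the largest increase among the genes named. It lies on chromosome 11 from 78920787 to 78960254 and rose by 2.16 ± 0.20 (adjusted p = 3.32e-25) in the authors' deposited table. Its implied level was 4887 in unirradiated IM, 8767 after SBRT, 13951 after IL-12 and 21914 after the combination. Of 20 genes of arginine, tryptophan, polyamine and itaconate metabolism 6 rose and 0 fell. Acod1, the itaconate-making enzyme (0.82 ± 0.20), and Wars, a tryptophanyl-tRNA synthetase (0.75 ± 0.13), were among them. The arginine importer Slc7a2 (0.68 ± 0.22) and the arginine-recycling enzyme Ass1 (0.54 ± 0.17) rose too, but not under the empirical null (adjusted p = 0.228 and 0.226). Arg1, the enzyme that competes for arginine, did not pass (0.46 ± 0.17, adjusted p = 0.0883).

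Glycolytic genes rose in 8 of 22 tested, with 1 fall and a median of 0.35, and 3 passed as higher and 0 as lower under the empirical null. Hk3, a hexokinase of myeloid cells, led (1.18 ± 0.11, adjusted p = 3.04e-25), with Pfkfb3, which makes the activator of phosphofructokinase (0.70 ± 0.14), and Pfkp (0.45 ± 0.11) behind it. Aldoa, Tpi1 and Hk1 rose by 0.51 to 0.57 but not under the empirical null (adjusted p from 0.0563 to 0.123). Ldha (0.25), Pgam1 (0.22) and Eno1 (0.17) were not called. Of 18 other hypoxia-inducible genes 2 rose, Ndrg1 (0.77 ± 0.17) and Mif (0.55 ± 0.14, empirical-null adjusted p = 0.0619), while Vegfa (0.10) did not pass.

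The respiratory chain is encoded by both nuclear and mitochondrial genes, and the 2 sets are given side by side, with no test of their difference. Of 44 nuclear-encoded subunits 11 rose and 0 fell, and 2 passed as higher under the empirical null. The median was 0.18, and 41 had a positive fold change. Sdhb (0.44 ± 0.09) and Ndufa5 (0.55 ± 0.12) of complexes II and I led. Sdhd, Cycs, Cyc1 and Atp5o rose by 0.36 to 0.46 but not under the empirical null (adjusted p from 0.0555 to 0.116). All 13 mitochondrially encoded genes had a negative fold change, with a median of -0.32, and mt-Nd4l alone was called (-0.53 ± 0.18, empirical-null adjusted p = 0.348). Their median was nearly the same after SBRT alone (-0.29) and IL-12 alone (-0.27), so it was not particular to the combination. All 3 comparisons share the same unirradiated libraries. The RNA integrity minimum stated for the libraries was 5. The mitochondrial share of a library also moves with RNA and cell quality, and its part in the result was not tested. Of 23 oxidant and antioxidant genes 4 rose, led by thioredoxin, Txn1 (0.90 ± 0.11), with Prdx5 (0.58 ± 0.12) and the NADPH oxidase subunit gene Cyba (0.43 ± 0.09).

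Genes of sterol synthesis and LDL uptake fell. Of 24 tested, 8 fell and 0 rose, with a median of -0.33, and 3 passed as lower under the empirical null. These 3 were Msmo1 (-0.71 ± 0.14), Sqle, the squalene epoxidase (-0.84 ± 0.18), and Cyp51 (-0.84 ± 0.20). Idi1 (-0.86 ± 0.21), Srebf2, which encodes the transcription factor that drives the pathway (-0.58 ± 0.15), and Hsd17b7 (-0.68 ± 0.21) fell but lost the call there (adjusted p = 0.0529, 0.103 and 0.256). Sqle had implied levels of 522.2 in unirradiated, 341.2 in SBRT, 389.7 in IL-12 and 292.5 in combination IM. No member was called after SBRT or IL-12 alone, and the differences of the combination from each were not called either. Insig1 (-0.32) and Srebf1 (-0.09) did not pass. The sterol response motif TCACNCCAC, searched on both strands, stood in 1 of 17 promoters with an entry, against 1.24% of all promoters. Cyp51 overlaps Akap9 on the other strand.

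The enzyme Ch25h turns cholesterol into an oxysterol that restrains sterol synthesis and is a precursor of the ligand of the receptor GPR183. Ch25h, on chromosome 19 from 34473778 to 34475164, rose (1.79 ± 0.21, adjusted p = 1.46e-14), with implied levels of 268.2 in unirradiated, 479.0 in SBRT, 664.7 in IL-12 and 929.4 in combination IM. Gpr183, on chromosome 14 from 121952551 to 121965195, fell (-1.56 ± 0.19, adjusted p = 2.55e-13), with implied levels of 846.9, 676.6, 355.2 and 287.1. The order of the 4 groups was the same for both genes, in opposite directions. Other lipid genes rose in part: Lpl, the lipoprotein lipase (0.89 ± 0.19), and, not under the empirical null, Acsl1 (0.59), Ptges (0.73) and Pla2g7 (0.46), with adjusted p from 0.12 to 0.234. Hpgd, which degrades prostaglandins, fell (-1.37 ± 0.22). Apoe (-0.54), Plin2 (0.35) and Ptgs2 (0.12) were not called.

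**Figure D3:**
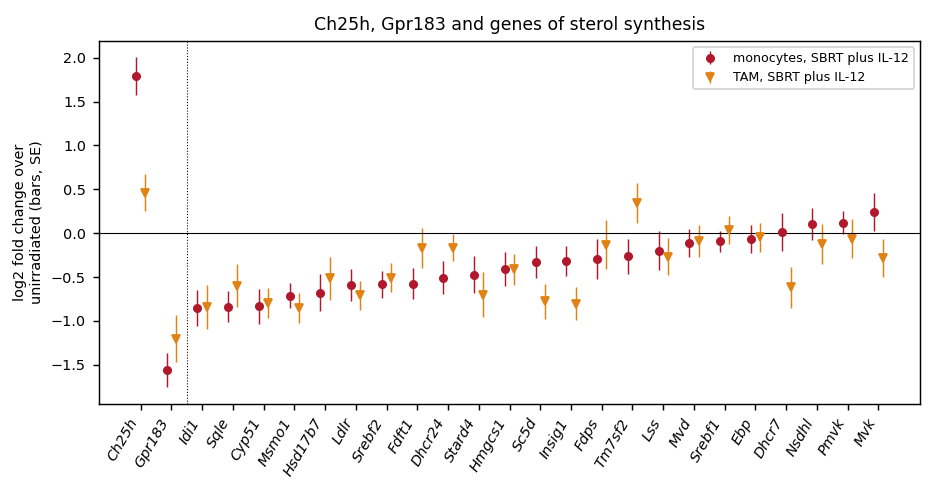
Log2 fold change over unirradiated (bars, SE) of Ch25h, Gpr183 and 23 genes of sterol synthesis and LDL uptake in IM (circles) and TAM (triangles) after the combination. Ch25h stands at 1.79 and Gpr183 at -1.56 in IM, and the sterol genes run from Idi1 at -0.86 upwards.

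Classical monocyte genes fell in 9 of 18 tested, with 2 rises and a median of -0.53, although Ly6c2 was one of those that rose. Fn1, the gene of fibronectin on chromosome 1 from 71585520 to 71653200, fell (-1.66 ± 0.18, adjusted p = 2.1e-17), from an implied level of 89565 in unirradiated through 67960 in SBRT and 41737 in IL-12 to 28405 in combination IM. Vcan (-1.23 ± 0.18), S100a4 (-1.19 ± 0.17), Thbs1 (-1.06 ± 0.15) and the clotting factor F13a1 (-1.03 ± 0.15) fell too. Lyz2 (-0.15), Cd14 (-0.39) and Ms4a4c (0.26) were not called. Of 14 non-classical monocyte genes 4 fell and 1 rose. Cx3cr1, the fractalkine receptor gene of patrolling monocytes, fell (-1.92 ± 0.17, adjusted p = 3.04e-25), with implied levels of 3572 in unirradiated, 2401 in SBRT, 1642 in IL-12 and 943.3 in combination IM. Adgre4 (-0.97 ± 0.21) and Nr4a1 (-0.71 ± 0.12) fell, while Fcgr4, an activating Fc receptor, rose (0.89 ± 0.15).

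Macrophage maturation genes gave 7 falls and 3 rises among 23 tested, and alternative activation genes 7 falls and 1 rise among 18. Cd163, the haemoglobin scavenger receptor, fell (-1.99 ± 0.22, adjusted p = 1.68e-16), from an implied level of 219.4 in unirradiated and 209.7 in SBRT to 65.2 in IL-12 and 55.1 in combination IM. The implied level was low in both groups that received IL-12. Fcrls (-2.30 ± 0.21), the chemokine gene Pf4 (-1.68 ± 0.22), Ear2 (-1.26 ± 0.21), Cbr2 (-1.16 ± 0.22), the mannose receptor gene Mrc1 (-0.99 ± 0.21), Chil3 (-0.98 ± 0.19) and Ms4a7 (-0.87 ± 0.19) also fell. C1qb rose (0.71 ± 0.16), and so did the other chains of C1q, C1qc (0.74) and C1qa (0.60, empirical-null adjusted p = 0.181), both named after their values were seen. Macrophage genes thus did not all fall. Apoe and Csf1r (-0.31) did not pass, nor did Il4ra (-0.02) and Tgm2 (0.19).

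Cd209a, the lectin gene of monocyte-derived dendritic cells on chromosome 8 from 3743397 to 3748984, had the lowest fold change among the genes named (-2.31 ± 0.22, adjusted p = 8.99e-23). Its implied level was 434.4 in unirradiated, 310.2 in SBRT, 128.2 in IL-12 and 87.6 in combination IM. Of 23 C-type lectin genes 4 fell and 2 rose, among them Clec12a, an inhibitory receptor (0.80 ± 0.11). Of 19 dendritic cell markers 2 fell, 2 rose and 15, between -0.29 and 0.60, were not called. Besides Cd209a, Flt3, the receptor of a dendritic cell growth factor, fell (-1.46 ± 0.23). Batf3 (0.58 ± 0.16) and Clec9a (0.73 ± 0.22), genes of cross-presenting dendritic cells, rose but not under the empirical null (adjusted p = 0.0866 and 0.192). The summed implied level of the 19 dendritic markers was 9547 in unirradiated and 9818 in combination IM. Their part in these changes was not tested.

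Scavenger and dead-cell uptake receptors gave 5 falls and 1 rise among 21. Itgb5, an integrin subunit that binds coated dead cells (-1.09 ± 0.16), and Stab1 (-0.73 ± 0.17) fell, and Cd36 rose (0.71 ± 0.17). Stab1 overlaps Nt5dc2 on the other strand, which fell as well (-0.66, adjusted p = 0.00285), so reads could be shared between them. Pros1 (-0.59) and Mfge8 (-0.52), which bridge dead cells to phagocytes, fell but not under the empirical null (adjusted p = 0.145 and 0.352). Complement genes gave 6 rises and 3 falls among 22 tested. Components of the early cascade rose, C4b (1.12 ± 0.15), Cfb (1.04 ± 0.17) and C1ra (0.95 ± 0.19), while the receptor genes C5ar2 (-1.04 ± 0.17) and Cd93 (-0.67 ± 0.13) fell. C3 (0.00), Cfp (-0.35) and Itgb2 (0.31) were not called. Of 32 paired activating and inhibitory receptors 7 fell and 3 rose (4 and 2 under the empirical null). Siglece, a sialic acid receptor (-1.05 ± 0.17), Cd244 (-0.98 ± 0.16) and Trem1, which amplifies inflammation (-0.86 ± 0.18), fell, and Cd200r4 (1.12 ± 0.17) and Cd300lf (0.68 ± 0.13) rose.

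Receptors for chemoattractants fell in 6 of 30 tested (3 under the empirical null), with 1 rise. Besides Cx3cr1, Gpr183 and Ccr2, Cysltr1 (-0.46) and P2ry6 (-0.55) fell, both lost under the empirical null (adjusted p = 0.219 and 0.285). P2ry14, a receptor of UDP-glucose, rose (1.31 ± 0.22). Chemokine genes gave 4 falls and 0 rises among 24: Ccl9 (-1.24 ± 0.14), Pf4, Ccl24 (-0.98 ± 0.21) and Ppbp (-0.67 ± 0.21, empirical-null adjusted p = 0.246). Cxcl10, an interferon-inducible chemokine, did not pass (0.22 ± 0.21, adjusted p = 0.706), nor did Ccl6 (-0.29) and Cxcl2 (-0.31). Among adhesion genes 5 of 30 fell and 3 rose, with Itga6 (-1.39 ± 0.21), Alcam (-0.81 ± 0.12) and Cd44 (-0.73 ± 0.13) lower.

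Of 28 cytokine genes 2 rose (7.14%) and 3 fell (10.7%), and of 29 cytokine receptor genes 2 rose (6.9%) and 4 fell (13.8%). These few calls became 2 rises and 1 fall, and 1 rise and 2 falls, under the empirical null. Tnfsf13b, which encodes the B cell factor BAFF (1.10 ± 0.20), and Tnfsf10, which encodes the death ligand TRAIL (1.01 ± 0.18), rose, and Igf1 fell (-1.20 ± 0.22). Tnf (0.38), Il1b (-0.28) and Il1rn (0.33) were not called. Of the receptors Il1rap, the shared chain of IL-1 family receptors, fell (-1.12 ± 0.18), and the decoy receptor gene Il1r2 rose (0.83 ± 0.18).

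Transcription factors of myeloid differentiation gave 8 falls and 2 rises among 42 (2 falls and 1 rise under the empirical null). Id2, which antagonises E proteins, rose (0.86 ± 0.13, adjusted p = 5.49e-09). All 3 Nr4a nuclear receptor genes fell, Nr4a1 (-0.71 ± 0.12), Nr4a2 (-0.73 ± 0.15) and Nr4a3 (-0.55 ± 0.16, empirical-null adjusted p = 0.186), and so did Ahr, the aryl hydrocarbon receptor gene (-0.67 ± 0.19, empirical-null adjusted p = 0.17). Klf6 (0.23) and Cebpb (-0.07) were not called. Of 29 NF-kB and immediate early genes 4 fell and 0 rose, with 1 fall under the empirical null, that of Fosl2 (-0.51 ± 0.10), while the abundant Nfkbia (-0.24), Dusp1 (-0.28) and Fos (-0.20) did not pass.

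Granule and S100 genes fell in 8 of 24 tested, and 0 rose. Cd177, a surface protein of neutrophils, fell from an implied level of 3068 in unirradiated and 2564 in SBRT to 1081 in IL-12 and 687.2 in combination IM (-2.16 ± 0.19, adjusted p = 1.28e-26). Lrg1 (-1.94 ± 0.21), S100a4, Anxa1 (-0.88 ± 0.17), Hp (-0.86 ± 0.16) and the collagenase gene Mmp8 (-1.04 ± 0.22) fell with it. Typical neutrophil transcripts did not pass: S100a8 (-0.31), S100a9 (-0.24), Ngp (-0.11), Camp (-0.09), Ly6g (0.20) and Csf3r (-0.02).

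Matrix proteins, proteases, inhibitors and clotting factors gave 10 falls and 2 rises among 33. Timp1, an inhibitor of matrix proteases (-1.73 ± 0.19, adjusted p = 3.59e-17), and Thbd, the thrombin receptor thrombomodulin (-1.40 ± 0.16), fell beside Fn1, Thbs1, Vcan and F13a1. Spp1, the gene of osteopontin, was not called (-0.48 ± 0.20, adjusted p = 0.145). Iron genes gave 4 falls and 1 rise among 16, with Steap4 lower (-0.92 ± 0.19) and Slc11a1, a metal exporter of phagosomes, higher (0.40 ± 0.08). Hmox1 (0.18) and the ferritin genes Fth1 (0.29) and Ftl1 (0.07) did not pass. Lysosomal genes stayed largely uncalled, with 3 rises and 2 falls of 32 (1 of each under the empirical null), among them Acp5 (-0.79 ± 0.15) and Ctsc (0.52 ± 0.13).

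Of the Ly6 surface proteins 4 of 9 rose. Ly6a, known as Sca-1, had implied levels of 17446 in unirradiated, 32918 in SBRT, 49112 in IL-12 and 66899 in combination IM (1.94 ± 0.16, adjusted p = 9.81e-29). Ly6i (1.25 ± 0.17), Ly6c1 (1.16 ± 0.15) and Ly6c2 rose, and Ly6e (-0.05) did not pass. Ly6c1 and Ly6c2 are near-identical copies. Of 12 Ms4a genes 3 fell and 0 rose, among them Ms4a4a (-0.80 ± 0.17).

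Of 25 cell death genes 4 rose (16%) and 1 fell (4%). The necroptosis genes Mlkl (0.71 ± 0.13) and Ripk3 (0.56 ± 0.13) rose, and Casp6 fell (-0.57 ± 0.12). Of 19 p53 targets 3 rose, Plk2 (0.74 ± 0.17), Bbc3 (0.63 ± 0.15) and Phlda3 (0.71 ± 0.23, empirical-null adjusted p = 0.239), while Cdkn1a (-0.04 ± 0.12, adjusted p = 0.934) and Mdm2 (0.30 ± 0.19) did not pass. None of 26 DNA repair genes was called. Of 36 replication and mitosis genes 32 had a positive fold change, with a median of 0.29, and 3 rose, Cdt1 (0.56), Ccne1 (0.63) and Mcm5 (0.57), none of them under the empirical null (adjusted p = 0.165, 0.2 and 0.256). Heat shock genes, which respond to tissue handling, gave 1 rise of 22 (4.55%), near the 3.69% of all tested genes. It was that of Hsp90aa1 (0.43 ± 0.14, empirical-null adjusted p = 0.246), and Hspa1a (0.39, adjusted p = 0.0721) did not pass.

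The remaining genes named for the size of their change fell outside these lists. Selm, the gene of selenoprotein M (2.01 ± 0.16), Sectm1a (1.99 ± 0.18), Inpp5j, an inositol phosphatase gene (1.88 ± 0.21), Prm1, which encodes a protamine of sperm (1.80 ± 0.22), Tchh (1.69 ± 0.23) and the transporter gene Slco3a1 (1.67 ± 0.15) rose, as did the transcripts AC102225.2 (1.92 ± 0.16), RP23-336O18.3 (1.65 ± 0.20) and AC102225.3 (1.63 ± 0.21). Dmkn (-2.05 ± 0.21), the endothelin receptor gene Ednrb (-1.95 ± 0.22), the sialyltransferase gene St6gal1 (-1.93 ± 0.22) and Igfbp6 (-1.55 ± 0.21) fell. F830016B08Rik (2.14 ± 0.17) and Gm4841 (1.94 ± 0.21), protein-coding genes whose kind of name the naming rule left out, rose as much and are named after their values were seen. For Dmkn the implied levels were 1675 in unirradiated, 1423 in SBRT, 756.8 in IL-12 and 403.6 in combination IM. Inpp5j and Pla2g3 overlap on opposite strands, and both rose.

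**Figure D4:**
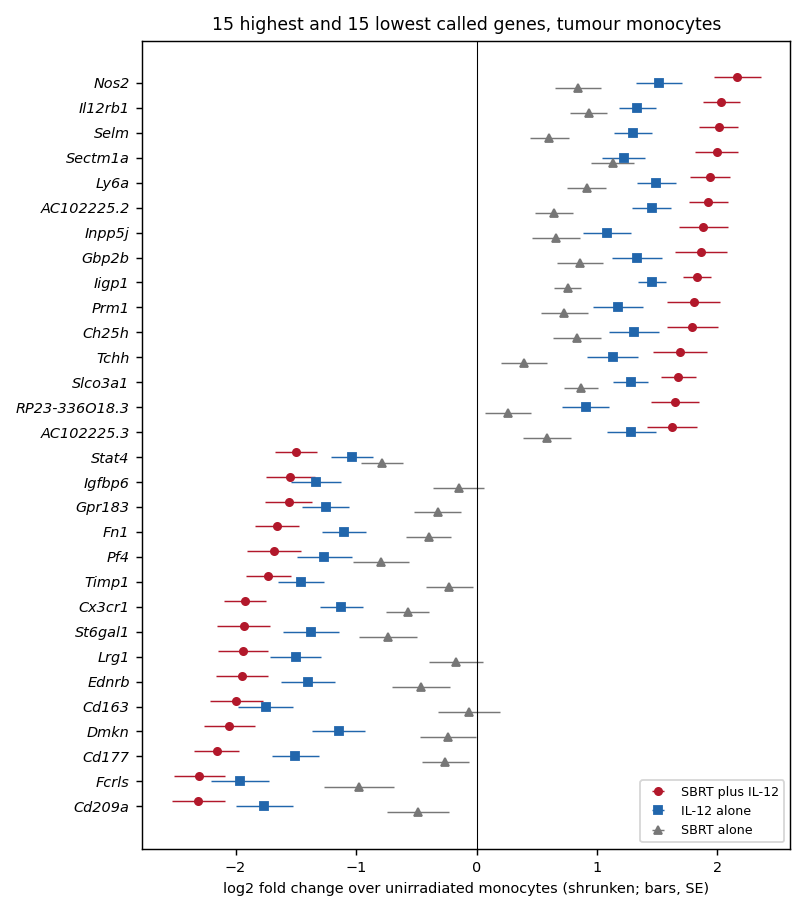
Log2 fold change over unirradiated IM (bars, SE) of the 15 highest and 15 lowest called genes after the combination (circles), IL-12 alone (squares) and SBRT alone (triangles). For Nos2 the 3 values are 2.16, 1.51 and 0.84, and for Cd209a they are -2.31, -1.76 and -0.49.

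What IL-12 added to SBRT was asked by the difference of the 2 deposited fold changes, with a normal test over 32818 genes. SBRT alone raised 73 genes (0.379%) and lowered 27 (0.14%) of 19273, and IL-12 alone raised 322 (1.91%) and lowered 224 (1.33%) of 16829, against the same 3 controls. The combination was higher than SBRT alone at 44 genes (0.134%) and lower at 20 (0.0609%), and all 64 were also called against unirradiated. Among the genes that the naming rule allows, the highest differences were those of Selm (1.40 ± 0.22), RP23-336O18.3 (1.38 ± 0.28), Nos2 (1.32 ± 0.27), Tchh (1.30 ± 0.29) and AC102225.2 (1.28 ± 0.23). Cd163 (-1.93 ± 0.34), Cd177 (-1.90 ± 0.27), Cd209a (-1.82 ± 0.34), Dmkn (-1.82 ± 0.31) and Lrg1 (-1.77 ± 0.31) had the lowest. Of the gene lists, guanylate-binding proteins had 3 members higher, immunity-related GTPases 4, and matrix genes 4 lower. Taken by itself, leaving out the covariance through the shared controls makes this test conservative. With the control variance removed, 205 genes were higher and 147 lower. At low level, however, the standard error used here shrinks with the fold change, so the test can be too lenient there. Masp1, at a mean level of 9.47, was called with standard errors of 0.17 after the combination and 0.02 after SBRT. With genes of a mean level of at least 50 only, 86 passed.

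What SBRT added to IL-12 depended on how the shared controls were treated. With the covariance left out, the same test of the combination minus IL-12 alone called 0 genes (0%) higher and 0 (0%) lower. An unadjusted p below 0.05 was found for 250 genes. With the control variance removed, which suits groups of equal size and spread, 16 genes passed, 10 higher and 6 lower. On the high side they included Il12rb1 (difference 0.70 ± 0.15, adjusted p = 0.0258), Selm (0.71 ± 0.16, adjusted p = 0.0325), Sectm1a (0.77 ± 0.18, adjusted p = 0.0358) and Tap1 (0.33 ± 0.08, adjusted p = 0.0394). Masp1 and Alas2 passed there too, at mean levels of 9.47 and 6.01, where this test can be too lenient. Cx3cr1 (-0.80 ± 0.17, adjusted p = 0.0251) and Spp1 (-1.12 ± 0.20, adjusted p = 0.000467) were on the low side. Spp1 had a fold change of 0.64 after IL-12 alone and -0.48 after the combination, and neither the mitochondrial nor the sterol genes were among the 16.

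In TAM, the population most like IM in this study, the combination raised 386 genes (2.24%) and lowered 339 (1.97%) of 17224. The difference between the IM and TAM effects, which share no library, was tested over 30093 genes, of which 173 (0.575%) were higher in IM and 106 (0.352%) lower. Of these 279 genes, 104 were called in IM and not in TAM, 129 in TAM and not in IM, 10 in both in the same direction, 19 in both in opposite directions and 17 in neither. Genes called in either population thus contributed.

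The p53 targets and the cell cycle genes differed most clearly between the populations. Of 19 p53 targets 10 had a lower effect in IM, where TAM had 13 rises. Cdkn1a was at -0.04 ± 0.12 in IM and 1.29 ± 0.16 in TAM (difference -1.33 ± 0.20, adjusted p = 7.18e-08), and Phlda3 at 0.71 ± 0.23 and 3.31 ± 0.19. Of 36 cell cycle genes 16 had a higher effect in IM, where TAM had 20 falls. Mcm5, part of the replicative helicase, was at 0.57 ± 0.19 in IM and -1.34 ± 0.22 in TAM (difference 1.91 ± 0.29, adjusted p = 9.15e-08).

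Immune genes differed too. MHC class II genes had 8 rises in IM and 0 in TAM, and 4 of 13 were higher by the test: H2-Ab1 (difference 0.94 ± 0.21, adjusted p = 0.00326), H2-Eb1 (0.92 ± 0.22), H2-Aa (0.82 ± 0.22) and H2-DMb2 (0.73 ± 0.20). Iigp1 was at 1.83 ± 0.12 in IM and 0.23 ± 0.17 in TAM (difference 1.60 ± 0.21, adjusted p = 1.45e-10). For the guanylate-binding proteins, with 11 rises in IM and 10 in TAM, no member passed the test of the difference. C4b (difference 1.33 ± 0.25), Ch25h (1.33 ± 0.30) and Il12rb1 (1.23 ± 0.22) had higher effects in IM. Cd209a (difference -2.22 ± 0.23), Cd177 (-1.79 ± 0.25), Cd163 (-1.69 ± 0.31) and Timp1 (-1.55 ± 0.32) had lower ones. In TAM the mean levels of Cd209a and Cd177 were only 8.81 and 18.2, against 240 and 1850 in IM. Cd209a had no adjusted p in TAM. Fold changes are shrunken most at such low levels, and the part of this in both differences was not tested. Sterol synthesis genes fell in 6 members in TAM as well, and none passed the test of the difference. The TAM groups hold 2 libraries each, which limits what this comparison can show.

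**Figure D5:**
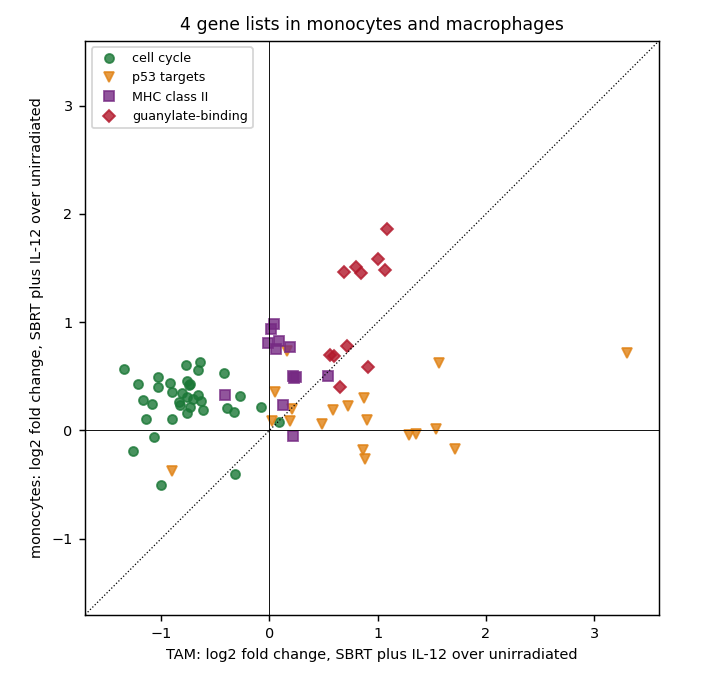
Log2 fold change after the combination in IM (vertical) against TAM (horizontal) for the tested members of 4 gene lists, each point a gene, with the line of equal change dotted. The p53 targets reach 3.31 in TAM and 0.74 in IM, 35 of the 36 cell cycle genes lie left of 0 in TAM, and 11 of the 13 MHC class II genes lie above the line.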

How the data were processed

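RNA of sorted tumour IM was sequenced from TruSeq RNA V2 libraries, which do not mark strand. Build GRCm38 and the tools STAR 2.6.0c, Salmon, featureCounts, Subread, FastQC 0.11.8 and Trimmomatic 0.36 are listed in the submitters' processing notes, without role or annotation. Only tables of DESeq2 comparisons were used here, with no version or design formula stated per the file headers. The normalised signal deposited by the authors is a mean over libraries of scaled counts. It was identical in the 3 IM tables for all 53735 genes. The log2 fold change deposited by the authors is treated over unirradiated. The deposited score is a Wald statistic. Its normal 2-sided probability equalled the p-value deposited by the authors. The deposited adjusted p-value covers 18660 genes with a mean level of at least 7.19. Depth per library is unknown, so no interval that needs it is given.

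Standard errors were approximated by fold change over statistic. Differences between tables were divided by the root of the summed squared standard errors and tested with a 2-sided normal test (Python 3.11.15, scipy 1.17.1). They were Benjamini-Hochberg adjusted over all genes with a p in both tables. A check on simulated data used only genes with a level of at least 50. Its effects were not shrunken, and both comparisons had equal standard errors. It therefore says nothing about the test at low level or under shrinkage. The unit of the tables allowed no count model. The p-values measure only the spread between libraries, which may be technical.

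Members and 60 lists (1262 of 1266 genes found) were chosen with earlier results of these data known. Lists are described by counts and medians beside all tested genes, with no set test. Genes named were the 15 highest and 15 lowest called fold changes (level 50 or more, without receptor segments, pseudogenes and predicted genes), up to 6 called and 3 uncalled members per list, every member of lists of at most 12 genes, and the 5 highest and 5 lowest of each difference. Alternatives were an adjusted p below 0.01, a level of at least 50, no level filter, the empirical null and removal of the control variance. Positions and overlaps come from GENCODE vM21 (GRCm38), promoters from RefSeq (GRCm38.p6). Clone-based gene names are as in the tables. A few genes of the lists are counted but not reported by name here.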

Additional observations from a re-analysis of the deposited data

Results flagged for a closer look

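The effect of the combination differed between IM and TAM by the test of the difference itself at 173 genes that were higher in IM and 106 that were lower. The 5 named genes with the highest differences on the log2 scale were Uhrf1 (2.283), Shcbp1 (1.999), Kntc1 (1.995), Mcm5 (1.912) and Wdhd1 (1.798). Uhrf1 maintains DNA methylation at replication, Kntc1 acts at the kinetochore and Mcm5 belongs to the replicative helicase. Uhrf1 rose in IM (1.10 ± 0.21) and fell in TAM (-1.18 ± 0.25), and Wdhd1 did so too (0.89 ± 0.22 and -0.90 ± 0.25). Shcbp1 and Mcm5 rose in IM, but not under the empirical null (adjusted p = 0.256 for each). Kntc1 fell in TAM (-1.46 ± 0.26) and did not pass in IM (0.54 ± 0.22).

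The 5 with the lowest differences were Phlda3 (-2.595), Gria3 (-2.301), Zmat3 (-1.89), RP24-286J21.7 (-1.88) and Trim12a (-1.859). Phlda3 and Zmat3 are targets of p53. Zmat3 rose in TAM (1.71 ± 0.21) and was not called in IM (-0.18 ± 0.22), while Gria3 fell in IM (-0.84 ± 0.22, empirical-null adjusted p = 0.112) and rose in TAM (1.46 ± 0.24). Trim12a fell in IM (-0.84 ± 0.20, empirical-null adjusted p = 0.0619) and rose in TAM (1.02 ± 0.29).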

How the results depend on the processing

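No alternative re-estimated a fold change, so directions were not put to a test. The 1254 called genes became 733 at an adjusted p below 0.01 (429 higher and 304 lower) and 492 under the empirical null (311 higher and 181 lower), 1259 at a level of at least 50 and 1024 with no level filter. Of 250 called genes that the naming rule picked, not all of them described in the report, 177 were still called under the empirical null, 204 at 0.01, 249 at a level of at least 50 and 233 with no filter. The combination differed from SBRT alone at 64 genes, 41 at an adjusted p below 0.01 and 352 with the control variance removed, and from IL-12 alone at 0, or 16 with the control variance removed. IM differed from TAM at 279 genes, and at 146 at an adjusted p below 0.01. No paired analysis was possible because the tables hold no values per library, and leaving out single replicates was not run for the same reason. Fold changes of genes of low level are shrunken most, and depth per library is unknown.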

Other observations

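Several gene families, chosen after their values had been seen, had many called members in IM after the combination. Over all tested genes 3.69% rose and 3.03% fell. All 5 tested Serpina3 genes, a cluster of serine protease inhibitors, rose by 0.95 to 1.23, with Serpina3g at 1.15 ± 0.20 and Serpina3f at 1.16 ± 0.22. All 4 Phf11 genes rose, with a median of 0.84 and Phf11a at 1.06 ± 0.10. Both Tmem176 genes fell, Tmem176b by -1.46 ± 0.20 and Tmem176a by -1.33 ± 0.19. Of 4 eosinophil-associated ribonuclease genes 3 fell, Ear2 most. Where members of these families are close copies, reads could be split between them.

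Of 15 sialyltransferase genes 6 fell and 1 rose. St6gal1 (-1.93 ± 0.22) and St8sia4 (-0.78 ± 0.15) had the lowest values, and St3gal5, which starts ganglioside synthesis, rose (0.83 ± 0.16). Of 17 tubulin genes 8 rose and 0 fell, Tubb2b by 0.69 ± 0.11 and Tubb2a by 0.67 ± 0.11, whose values in TAM were -0.35 and -0.27. The 17 include the pseudogenes Tubb4b-ps1, which rose, and Tubb4b-ps2, which was not called. Reads could be split between such copies. Of 22 genes of replicative polymerases, clamp loader, GINS and CAF-1, with Uhrf1 and Wdhd1 counted among them, 9 rose. Uhrf1 and Wdhd1 are not of these groups and had already been named for their difference from TAM, which raises the count. Gins2 rose most (1.13 ± 0.18, -0.53 in TAM). Besides Gins2, Uhrf1 and Wdhd1, those that rose had deposited adjusted p from 0.0137 to 0.0426. Their empirical-null values are not given. Of 84 cytosolic ribosomal protein genes 0 rose and 1 fell, with a median of -0.15.

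Neighbouring genes rose together at 3 places (GRCm38), also picked after the values were seen. On chromosome 16 these were Socs1 (10782240 to 10785536, 1.10), Tnp2 (1.18), Prm1 (10796326 to 10805839, 1.80) and Rmi2 (1.28). On chromosome 19 Insl6 (1.12), Plgrkt (0.76), Cd274 (1.31) and Pdcd1lg2 (0.94) rose, while Jak2 beside them did not pass (0.09 ± 0.15). On chromosome 11 they were Pla2g3 (1.01), Inpp5j (1.88) and Selm (2.01). The runs are not unbroken: Prm3, Prm2 and Gm11172 on chromosome 16 and Rln1 on chromosome 19 lie among these genes. Their mean levels were 0 to 1.45, and they had no adjusted p. The counts do not mark strand, and reads that run past the end of a gene were not examined.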
